A study of Ovis aries with 115 samples.

Results

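SLC16A6 (ENSOARG00000015264) is 1 of the 27054 gene identifiers counted in the sheep cervix and 1 of the 14811 that were tested. It was chosen by its counts in the Belclare and Suffolk ewes of the synchronised follicular group, between which they differed, so comparisons that use those ewes are given below as descriptions, without a p-value. RNA of post-mortem cervical tissue was sequenced in 115 libraries, of which all but 1 could be placed in 12 groups of breed and state. The breeds were Suffolk and Belclare from Ireland and Fur and Norwegian White Sheep (NWS) from Norway, labelled FUR and Norwegian. The states were synchronised follicular (a cycle labelled Induced), natural follicular and synchronised luteal. Synchronised ewes carried an intravaginal progestagen sponge and then received equine chorionic gonadotrophin, and the ewes described in the study's methods were multiparous adults. The synchronised follicular groups held 11 Suffolk, 10 Belclare, 8 Fur and 10 NWS ewes, the natural follicular groups 8, 10, 10 and 10, and the synchronised luteal groups 10, 10, 9 and 8. Breed and country changed together, so they cannot be told apart between an Irish and a Norwegian breed, and no luteal phase of a natural cycle was analysed here.

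The SLC16 genes encode monocarboxylate transporters, membrane proteins that carry small organic acids such as lactate, pyruvate and ketone bodies, or in some members other small metabolites, across the cell membrane. SLC16A6 encodes the member known as MCT7, which has been tied to the release of ketone bodies and to taurine transport. In the cervix, epithelium, smooth muscle and stroma change through the oestrous cycle under oestrogen and progesterone, and the epithelium secretes the mucus that sperm must cross.

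SLC16A6 was a gene of low count in every group. A single ewe had between 4 and 182 read pairs assigned to it, out of totals of 12238996 to 31261671 per library, and levels are given as CPM, counts relative to library sizes scaled by the trimmed mean of M-values. The mean over all ewes was 28.2 read pairs, at which counting alone gives a coefficient of variation of 0.188. The spread between ewes was wider than that, with a biological coefficient of variation of 0.610 against a median of 0.242 over all genes tested, and 91.9% of genes had a smaller dispersion.

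The highest mean levels were in the follicular Suffolk ewes. Natural follicular Suffolk ewes had 3.91 ± 3.55 CPM (SD, n = 8), with values of 0.516, 0.763, 0.991, 3.11, 3.35, 5.50, 6.12 and 10.97. These ewes fell apart into 3 with less than 1 CPM and 5 with more than 3 CPM, and no ewe lay between. Synchronised follicular Suffolk ewes had 3.44 ± 2.44 CPM (n = 11), from 1.47 over a median of 2.87 to 10.1, with no ewe below 1 CPM. Suffolk ewes in the luteal phase had 1.26 ± 0.910 CPM (n = 10), from 0.345 over a median of 0.969 to 3.43.

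In the other breeds the means lay between 0.814 and 1.73 CPM. Belclare ewes had 0.860 ± 0.563 CPM in the synchronised follicular phase (n = 10; lowest 0.268, median 0.662, highest 2.01), 1.67 ± 1.64 CPM in the natural follicular phase (n = 10; 0.315, 0.996, 5.39) and 1.35 ± 0.993 CPM in the luteal phase (n = 10; 0.440, 0.955, 3.25). The natural follicular Belclare mean was carried by 2 ewes, at 3.85 and 5.39 CPM, while the other 8 lay at or below 1.54 CPM. Fur ewes had 1.28 ± 0.508 CPM (n = 8; 0.561, 1.28, 2.04), 0.842 ± 0.478 CPM (n = 10; 0.194, 0.811, 1.56) and 0.906 ± 0.298 CPM (n = 9; 0.523, 0.844, 1.41) in the same order of states. NWS ewes had 1.73 ± 1.26 CPM (n = 10; 0.374, 1.18, 3.86), 0.814 ± 0.414 CPM (n = 10; 0.431, 0.651, 1.65) and 1.35 ± 0.728 CPM (n = 8; 0.674, 1.05, 2.53). The group with the smallest SD in CPM was that of the luteal Fur ewes.

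**Figure D1:**
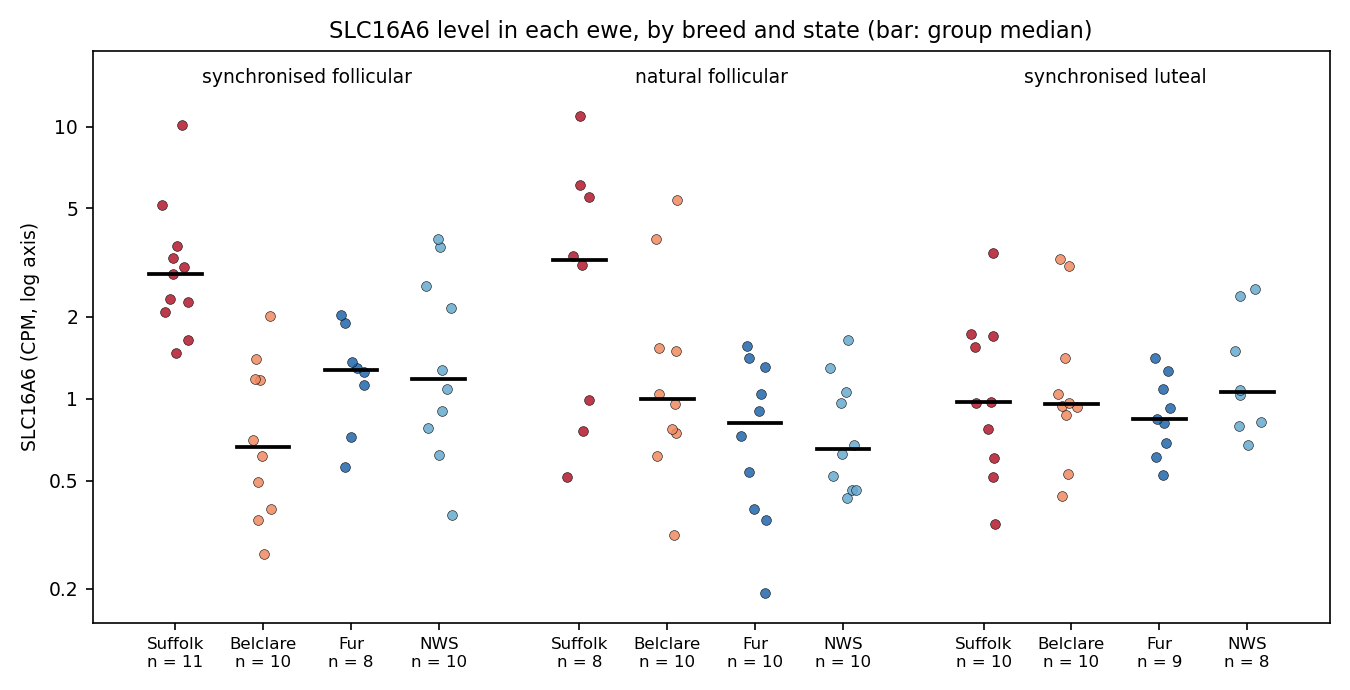
SLC16A6 level of each ewe in CPM on a logarithmic axis, by breed within each state. Points are ewes and bars are group medians. Natural follicular Suffolk ewes form a low set of 3 and a high set of 5, and the Fur and NWS ewes of that state all lie below the high set.

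Ordered by mean, the groups ran from natural and synchronised follicular Suffolk over NWS synchronised follicular, Belclare natural follicular, NWS luteal, Belclare luteal, Fur synchronised follicular, Suffolk luteal, Fur luteal, Belclare synchronised follicular and Fur natural follicular down to NWS natural follicular. All 11 pairs of neighbours in this order overlapped in range. In 7 of these pairs neither group had served to choose the gene. Two-sided exact permutation tests of mean log2 CPM gave them p-values from 0.482 to 0.993. No tested step exceeded the spread between ewes, but neighbours in an order by mean lie close by construction. These values therefore do not test the order as a whole. In 3 of these 7 steps the mean log2 CPM ran the other way.

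The first question was whether the breeds differed in a natural cycle, in ewes that took no part in choosing the gene. They did, between Suffolk and both Norwegian breeds. SLC16A6 was 4.73-fold higher in Suffolk than in Fur (log2 fold change, log2 FC, of Fur over Suffolk -2.24, standard error, SE, 0.53, 95% interval -3.35 to -1.14, adjusted p = 0.0093, edgeR's quasi-likelihood test) and 4.79-fold higher in Suffolk than in NWS (-2.26, SE 0.50, 95% interval -3.31 to -1.22, adjusted p = 0.042). A gene was called when its adjusted p was under 0.05 and its fold change above 1.5, and these calls were made for 9.62% of all genes in Fur and 0.993% in NWS. In each comparison 5 of the 8 Suffolk ewes lay above every ewe of the other breed, while the remaining 3 lay inside its range. Both comparisons use the same 8 Suffolk ewes, so they are not independent of each other. Two-sided exact permutation tests of mean log2 CPM gave p = 0.00946 for Fur and p = 0.00754 for NWS, as values for this gene alone.

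The call against Fur was kept whichever of the 18 ewes was left out, with adjusted p-values from 0.00203 to 0.0272. The call against NWS was lost in 12 of 18 such fits, namely without NWS replicates 2, 4, 6, 7, 8, 9 and 10 or Suffolk replicates 2, 3, 4, 8 and 9. Its fold change stayed between -2.44 and -1.83 on the log2 scale and its adjusted p rose to at most 0.0979, reached without Suffolk replicate 9, the ewe at 10.97 CPM, where the log2 FC was -1.83.

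Belclare stood between these breeds in the natural cycle, and no difference from it was called. Over Suffolk its log2 FC was -1.23 (SE 0.59, 95% interval -2.46 to 0.01, adjusted p = 0.511). In that comparison 0% of genes were called by edgeR, although 1443 had an unadjusted p under 0.05, and DESeq2's Wald test called 18 genes, SLC16A6 not among them. The exact permutation test of SLC16A6 gave p = 0.119, and 3 Suffolk ewes lay above every Belclare ewe. Fur over Belclare had a log2 FC of -0.998 (SE 0.47, adjusted p = 0.0938, 15.7% of genes called) and NWS over Belclare one of -1.04 (SE 0.44, adjusted p = 0.0999, 13% of genes called). Fur and NWS had near-equal means, with a log2 FC of -0.04 (95% interval -0.77 to 0.69) in a comparison in which 0.0338% of genes were called. Its interval still holds changes of more than 1.5-fold in both directions.

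In the synchronised luteal phase, no difference in SLC16A6 between breeds was called. Against Suffolk the log2 FC was 0.09 in Belclare (95% interval -0.77 to 0.95, adjusted p = 0.916), -0.47 in Fur (-1.21 to 0.26, adjusted p = 0.32) and 0.12 in NWS (-0.71 to 0.95, adjusted p = 0.886), all by edgeR. These comparisons called 2.43%, 13.8% and 4.35% of all genes, so the luteal libraries did separate breeds for other genes. Among the other luteal pairs the largest estimate was NWS over Fur, with a log2 FC of 0.58 (95% interval -0.06 to 1.21, adjusted p = 0.497, 0.0405% of genes called). Fur over Belclare had -0.56 (adjusted p = 0.217, 16.3% called) and NWS over Belclare 0.02 (adjusted p = 0.977, 11.6% called).

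The breed difference was then compared between natural follicular and synchronised luteal ewes in a single model, in which cycle and phase change together. Taken as the follicular minus the luteal log2 FC over Suffolk, it was -1.32 for Belclare (SE 0.73, adjusted p = 0.514), -1.75 for Fur (SE 0.64, adjusted p = 0.151) and -2.38 for NWS (SE 0.65, unadjusted p = 0.00078, adjusted p = 0.405). None was called by edgeR, against 0%, 1.23% and 0.0135% of all genes. In the Belclare model 1617 genes had an unadjusted p under 0.05 and DESeq2 called 64 genes. A larger breed difference in natural follicular than in synchronised luteal ewes was therefore not shown at the level of all genes tested, although all 3 estimates had that sign. The 3 models share the Suffolk ewes.

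In the synchronised follicular phase, in which the gene was chosen, Suffolk ewes were the highest of the 4 breeds. The log2 FC over Suffolk was -2.01 in Belclare (SE 0.39), -1.42 in Fur (SE 0.35) and -0.999 in NWS (SE 0.41). The groups overlapped in few ewes, as 9 of the 11 Suffolk ewes lay above every Belclare ewe and every Fur ewe. Of the 8 Fur and 10 NWS ewes, 6 of each breed lay below every Suffolk ewe, but only 2 Suffolk ewes lay above every NWS ewe. At the edge of the choice, the highest Belclare ewe had 2.01 CPM and the lowest Suffolk ewes had 1.47 and 1.64 CPM. Belclare was here the lowest breed, with log2 FCs of 0.59 for Fur (SE 0.37) and 1.01 for NWS (SE 0.44) over Belclare. These pairs of breeds called 0.00675%, 13.3% and 18.7% of all genes over Suffolk and 9.26% and 16.3% over Belclare. The single pair of breeds outside the choice, NWS over Fur, had a log2 FC of 0.42 (SE 0.41, adjusted p = 0.87, 0.00675% of genes called), and its values differed by less than the spread between ewes.

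**Figure D2:**
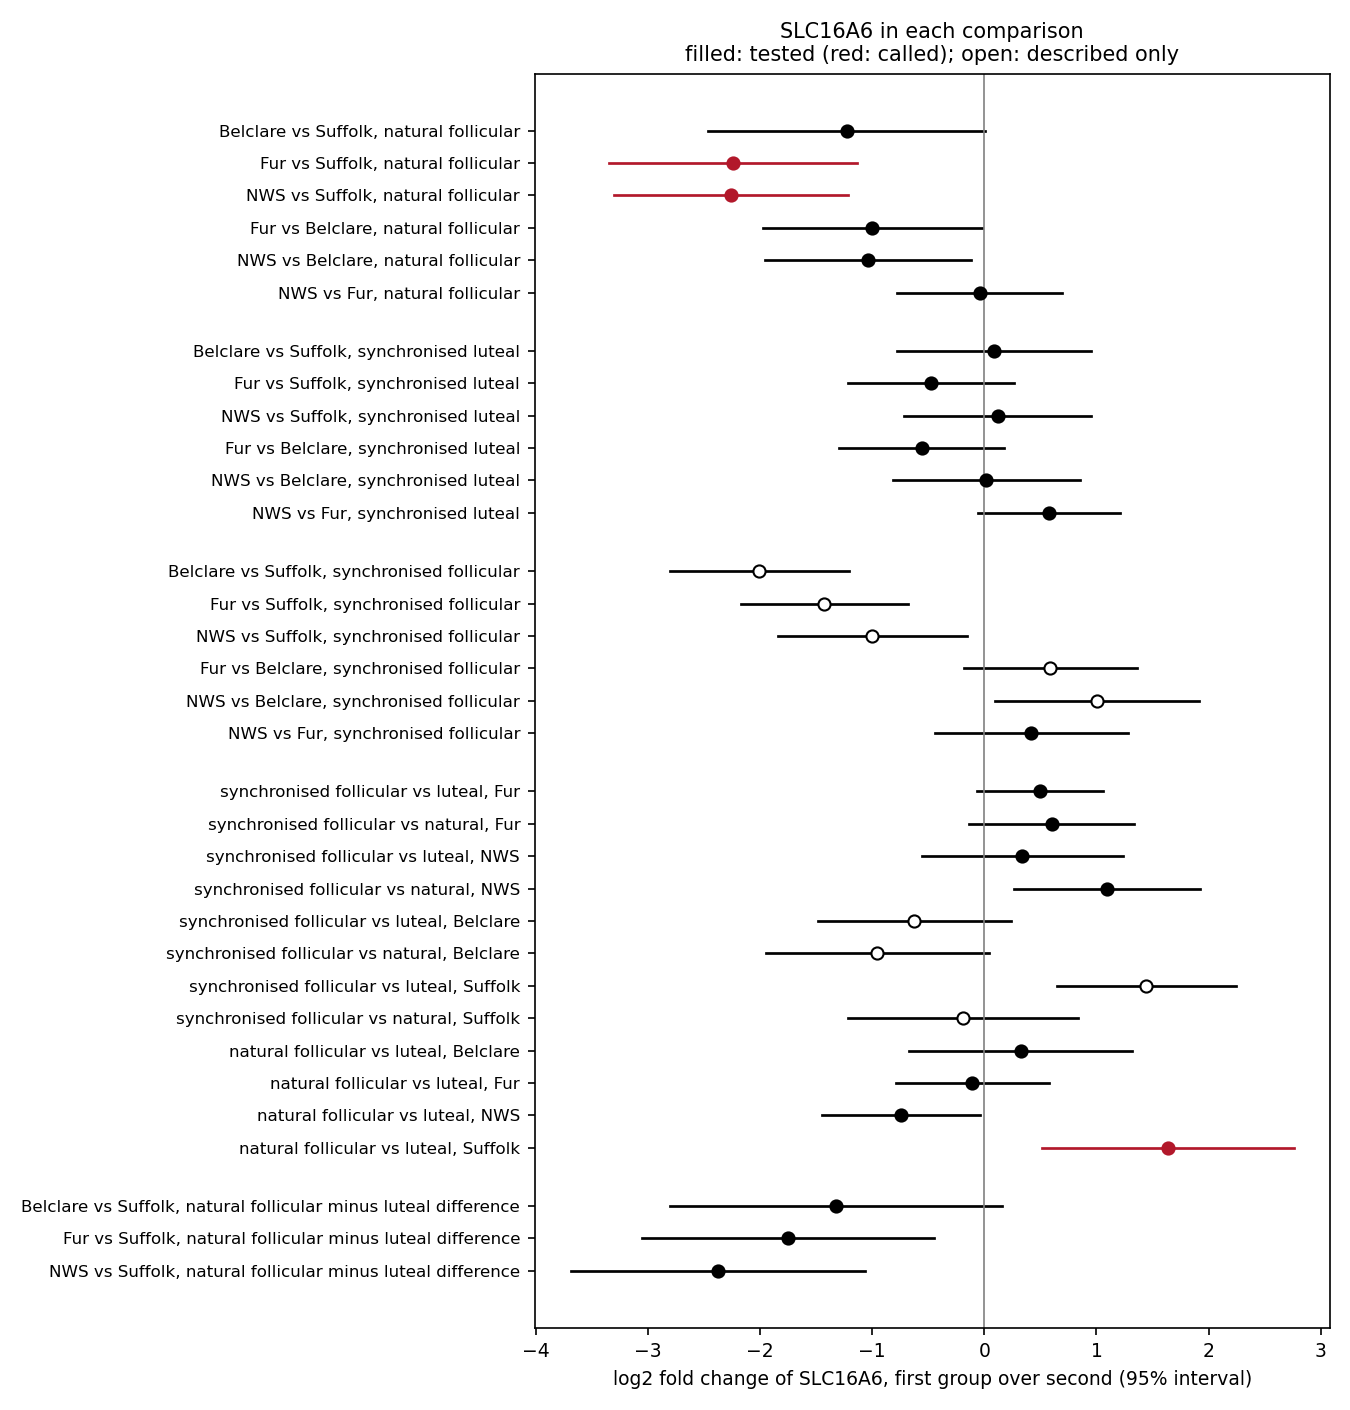
Log2 FC of SLC16A6 in each comparison, first group over second, with its 95% interval. Filled points were tested, red ones were called, and open points are descriptions because their ewes chose the gene. The called ones are Fur and NWS over Suffolk in the natural follicular phase (-2.24 and -2.26) and the natural follicular over the luteal phase in Suffolk (1.64).

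Within Suffolk, SLC16A6 was higher in the follicular phase of a natural cycle than in the luteal phase of a synchronised one. The change was 3.11-fold (log2 FC 1.64, SE 0.54, adjusted p = 0.0368 by edgeR, 12.7% of genes called), in a comparison added after the values had been seen, in which cycle and phase change together. Of the 8 follicular ewes, 3 lay above every luteal ewe, 2 luteal ewes lay below every follicular ewe, and the exact permutation test gave p = 0.0496. This call was lost in 10 of 18 fits with 1 ewe left out, those without follicular replicates 2, 3, 8 and 9 or luteal replicates 1, 2, 3, 8, 9 and 10, where adjusted p reached 0.113 and the log2 FC 1.21 without follicular replicate 9. The synchronised follicular Suffolk ewes, described without a test, were also above the luteal ones, by 1.45 on the log2 scale (SE 0.39, 17.1% of genes called), and 6 of the 10 luteal ewes lay below every one of them. Between the synchronised and the natural follicular phase of Suffolk the log2 FC was -0.19 (SE 0.49).

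The other breeds did not have this pattern as a called change. In NWS the synchronised follicular ewes were above the natural follicular ones by 1.10 on the log2 scale (SE 0.40, unadjusted p = 0.0121, adjusted p = 0.268 by edgeR), with 4 of 10 above every natural follicular ewe and an exact permutation p of 0.0516, where edgeR called 0.0135% of all genes (2 genes), DESeq2 95 genes and the fit of all groups together 79. The log2 FC of the synchronised follicular over the luteal phase in NWS was 0.34 (adjusted p = 0.547, 22.1% of genes called), and that of the natural follicular over the luteal phase was -0.75 (adjusted p = 0.14, 9.11% called), with 5 of 10 follicular ewes below every luteal ewe. In Fur the same quantities were 0.60 for synchronised over natural follicular (adjusted p = 0.245, 4.92% called), 0.49 for synchronised follicular over luteal (adjusted p = 0.14, 23.8% called) and -0.11 for natural follicular over luteal (adjusted p = 0.82, 18.5% called). In Belclare, natural follicular over luteal was 0.32 (adjusted p = 0.613, 19.7% called), and the synchronised follicular ewes, described only, lay below the natural follicular ones (log2 FC -0.95, SE 0.48, 0% of genes called by edgeR, 291 at an unadjusted p under 0.05) and below the luteal ones (-0.62, SE 0.41, 22.4% called). The low level of the synchronised follicular Belclare ewes was part of the choice of the gene.

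SLC16A6 was next set beside other proteins that handle monocarboxylates and carry a gene name in the study: SLC16A5, which encodes the family member MCT6, SLC5A8, a sodium-coupled carrier of lactate and short-chain fatty acids, and EMB (embigin), a membrane glycoprotein that accompanies monocarboxylate transporters to the cell surface. Names were available for 1338 of the genes tested, mostly genes listed in the study as higher in Suffolk than in Fur at the synchronised follicular phase, so these lists are not independent of those samples. In the natural follicular phase none of the 3 was called over Suffolk in any breed. Their median log2 FC was -0.17 in Belclare, -0.63 in Fur and -0.93 in NWS, beside medians of all genes of -0.02, -0.03 and 0.01, and each single estimate was smaller in size than that of SLC16A6. For Fur over Suffolk, for example, the log2 FC was -0.63 for SLC16A5 (SE 0.25, adjusted p = 0.0782), -0.85 for SLC5A8 (0.47, adjusted p = 0.203) and -0.23 for EMB (0.28, adjusted p = 0.579), all by edgeR.

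SLC16A5 was called in comparisons in which SLC16A6 was not. It was lower in Belclare (log2 FC -0.73, SE 0.19, adjusted p = 0.0453) and Fur (-0.82, 0.20, adjusted p = 0.006) than in Suffolk in the luteal phase, and had -0.57 (0.22, adjusted p = 0.109) in NWS. In Fur it was higher in the synchronised follicular than in the luteal phase, by 0.81 on the log2 scale (0.16, adjusted p = 0.000566), with 13.2 ± 3.84 CPM (n = 8) against 7.56 ± 1.20 CPM (n = 9). In NWS the change was 0.50 (0.12, adjusted p = 0.00451), below the fold threshold. SLC16A5 was called higher between the same states in Belclare (log2 FC 1.01) and Suffolk too, where SLC16A6 was described only. It was also called higher in the natural follicular than in the luteal phase in Belclare (0.83), but not in Fur, NWS or Suffolk. SLC5A8 went the other way in Fur, with -1.77 (0.61, adjusted p = 0.0256) for the synchronised follicular over the luteal phase, and its luteal levels ranged from 4.03 to 76.1 CPM. In Fur it was also called lower in the natural follicular than in the luteal phase (-1.70). In Belclare it was called lower in the synchronised follicular than in the luteal phase (-1.66). EMB was called once among the comparisons of breeds outside the synchronised follicular phase, as lower in NWS than in Belclare in the natural follicular phase (-0.92, 0.23, adjusted p = 0.00961).

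**Figure D3:**
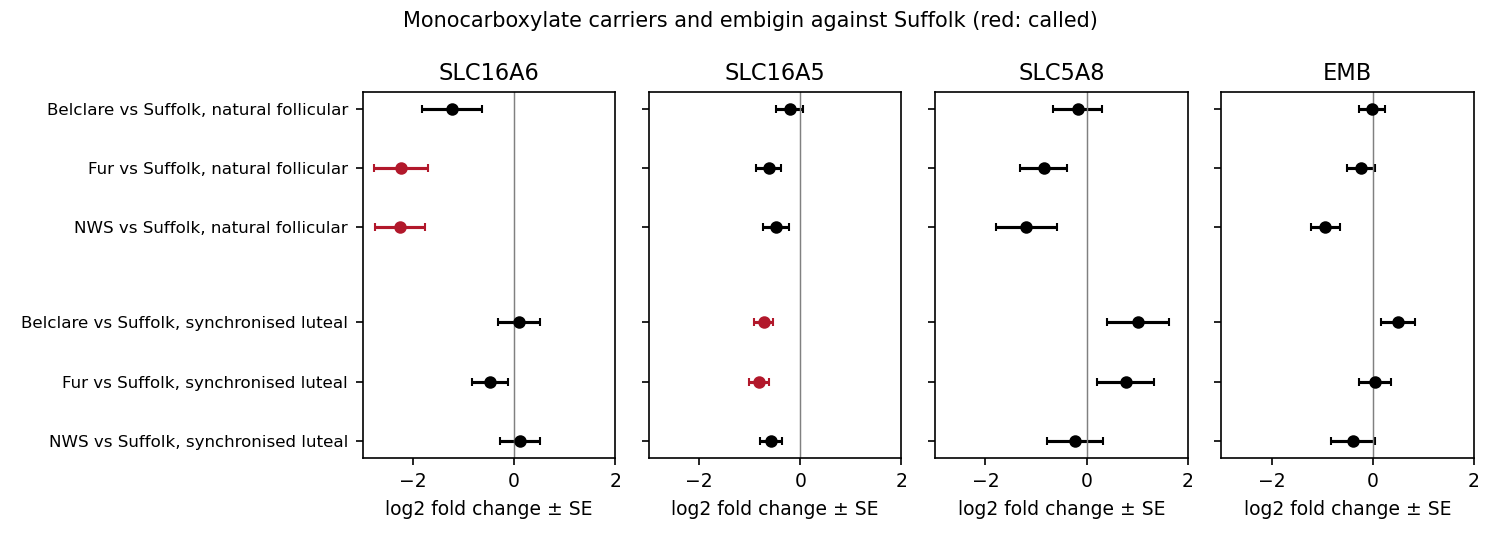
Log2 FC over Suffolk, with its standard error, of SLC16A6, SLC16A5, SLC5A8 and EMB in the natural follicular (upper 3 rows) and the luteal phase (lower 3 rows). Red points were called: SLC16A6 in Fur and NWS in the natural follicular phase, and SLC16A5 in Belclare and Fur in the luteal phase.

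Genes of fatty acid oxidation and ketone body metabolism, the pathway that makes and uses the acids such carriers move, were counted as a list of 17. In the natural follicular phase of Fur, 1 was called higher and 4 lower than in Suffolk (median of the list -0.20), against 9.62% of all genes in either direction. Lower were CREB3L3 (log2 FC -1.99, SE 0.55, adjusted p = 0.0193), a transcription factor of fasting metabolism, VNN1 (-2.37, 0.81, adjusted p = 0.0459), a pantetheinase, CIDEA (-0.99, 0.31, adjusted p = 0.0319), a lipid droplet protein, and ACSS3 (-0.75, 0.25, adjusted p = 0.0397), an acyl-CoA synthetase. Higher was UCP2 (0.84, 0.23, adjusted p = 0.0204), a mitochondrial carrier. None of the genes for the carnitine shuttle, CPT1A, CPT1B and CPT1C, was among them. In NWS, where 0.993% of all genes were called, 0 of the 17 were among them, and in Belclare 0% of genes were called at all, so these counts say nothing particular of the list (medians -0.15 and 0.15, edgeR). In Suffolk, VNN1 was the 1 member of this list called higher in the natural follicular than in the luteal phase (2.66, 0.73, adjusted p = 0.0171), and 0 were lower, beside 12.7% of all genes called in either direction.

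Of a list of 9 genes that respond to or process steroid hormones, 4 were called higher and 0 lower in natural follicular than in synchronised luteal Suffolk ewes, a comparison in which 12.7% of all genes were called in either direction. They were GREB1 (log2 FC 2.76, SE 0.45, adjusted p = 0.000984), an oestrogen-induced gene, HSD11B1 (2.82, 0.34, adjusted p = 0.000144), which regenerates active glucocorticoid, PADI2 (1.25, 0.38, adjusted p = 0.0275), a peptidylarginine deiminase, and KLF9 (0.60, 0.19, adjusted p = 0.0347), a transcription factor. The list median was 0.60 beside 0.01 over all genes. Between the same states, 4 of the list were called higher and 0 lower in Belclare, 4 and 0 in Fur, and 3 and 1 in NWS. There 19.7%, 18.5% and 9.11% of all genes were called, and SLC16A6 was not called in any of these breeds. Over Suffolk in the natural follicular phase, OXTR, the oxytocin receptor, was lower in Fur (-3.66, 0.99, adjusted p = 0.0175) and in NWS (-4.24, 0.95, adjusted p = 0.0432), and ESR2, an oestrogen receptor, in NWS (-1.90, 0.45, adjusted p = 0.0489). These are 1 of 9 in Fur and 2 of 9 in NWS, beside 9.62% and 0.993% of all genes. In Belclare, where edgeR called no gene of any kind, the list had a median of 0.12.

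The genes whose level followed that of SLC16A6 from ewe to ewe were sought among all 14810 other genes, over the ewes of all groups and after the mean of each group had been subtracted from the log2 CPM. The values are descriptions, and they share library, depth and tissue composition. The quartiles of all these correlations were -0.19 and 0.18, the extremes -0.66 and 0.65. In all, 189 genes had an r above 0.5, and 1337 of the genes compared carried a name. Among named genes the highest Pearson r was that of FJX1 (0.61, Spearman 0.53), which encodes a secreted or Golgi protein related to four-jointed, followed by PGS1 (0.60), an enzyme of cardiolipin synthesis, WNT10B (0.59), a WNT ligand, SMARCA4 (0.58), the ATPase of a chromatin remodelling complex, and SERPINA11 (0.58), a serpin. The identifiers without a name that came highest were ENSOARG00000015910 (0.65) and ENSOARG00000017205 (0.61). SLC16A5 had 0.53 (0.70 in Suffolk, 0.57 in Belclare, 0.46 in Fur and 0.15 in NWS), SLC5A8 0.26 and EMB 0.08. Among all genes, named or not, SMARCA4, SERPINA11 and SLC16A5 ranked 24, 25 and 104. The lowest among named genes were TEX14 (-0.53), a protein of intercellular bridges, YPEL3 (-0.51), a small zinc-binding protein, and CALCOCO1 (-0.51), a selective autophagy receptor, while CPT1A had -0.34.

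FJX1 was also the gene closest to SLC16A6 over the 12 group means, with r = 0.92 and the first rank of all genes, over means that include the groups that chose SLC16A6. The next named genes were ITGB6 (0.80, rank 5 of all genes), an integrin subunit, and FGFRL1 (0.79, rank 7), a receptor of fibroblast growth factors. ITGB6 and FGFRL1 followed SLC16A6 little from ewe to ewe (0.08 and 0.33). FJX1 had 11.8 ± 7.05 CPM (n = 8) in natural and 11.4 ± 6.16 CPM (n = 11) in synchronised follicular Suffolk ewes, and group means from 4.98 to 8.29 CPM elsewhere. Within single breeds its r with SLC16A6 was 0.76 in Suffolk, 0.62 in Belclare, 0.46 in NWS and 0.42 in Fur. Without the ewes farthest from the median of SLC16A6, natural follicular Suffolk replicate 9 and Belclare replicate 8, the r over all ewes was 0.59. In the natural follicular phase FJX1 was lower in Fur than in Suffolk (log2 FC -1.21, SE 0.32, adjusted p = 0.0167), as were ITGB6 (-1.33, 0.33, adjusted p = 0.0117), FGFRL1 (-1.43, 0.38, adjusted p = 0.0156) and SERPINA11 (-2.24, 0.74, adjusted p = 0.0398). SERPINA11 was also higher in the natural follicular than in the luteal phase of Suffolk (3.93, 0.78, adjusted p = 0.00338). Its levels were low, with 4.01 ± 4.16 CPM (n = 8, 0.054 to 12.1) in these follicular ewes. The luteal ewes had 0.246 ± 0.230 CPM (n = 10, 0 to 0.568).

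**Figure D4:**
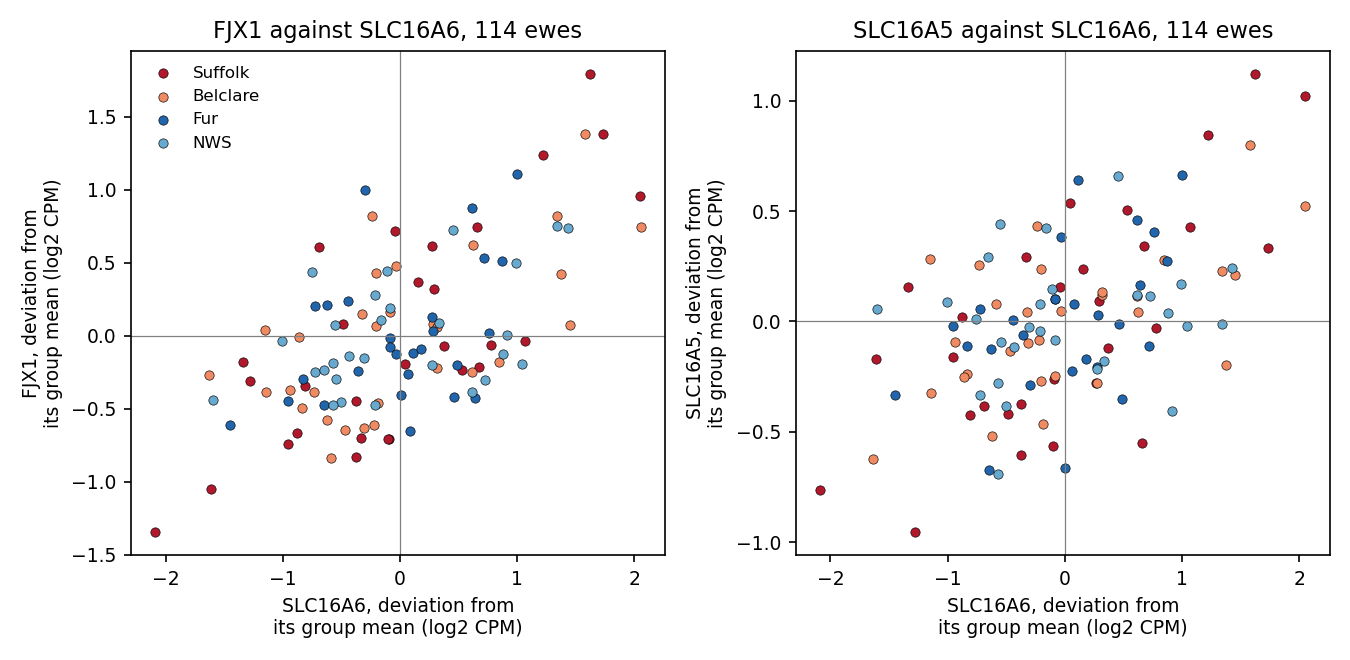
Deviation of each ewe from its group mean in log2 CPM, FJX1 (left) and SLC16A5 (right) against SLC16A6, coloured by breed. Ewes with much SLC16A6 for their group tend to have more FJX1 (r = 0.61) and SLC16A5 (r = 0.53). For SLC16A5 the r was 0.70 in Suffolk but 0.15 in NWS.

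Markers of some cell types of the cervix also differed between Suffolk and the Norwegian breeds. In bulk tissue, fewer cells of a type and less RNA per cell cannot be told apart. None of the epithelial, smooth muscle, fibroblast and leukocyte markers was at 0 in every ewe of a group. In the natural follicular phase, the summed level of 10 epithelial markers had a median of 2381 CPM in Suffolk (1180 to 3319) against 1354 CPM in Fur (983 to 1756) and 1503 CPM in NWS (843 to 1911), and 5 of the 10 were called lower in Fur and 2 in NWS, beside 9.62% and 0.993% of all genes. The 5 smooth muscle markers summed to a median of 482 CPM in Suffolk (67.7 to 6114) against 5104 CPM in Fur (1673 to 7778) and 5654 CPM in NWS (1279 to 22719.9), and 1 was called higher in Fur and 0 in NWS. The 9 leukocyte markers had medians of 284, 236 and 253 CPM and the 6 fibroblast markers 2842, 2315 and 2733 CPM in the same order, with 1 leukocyte marker called lower in Fur and no other of these called. Of the 3 secretory markers 2 were called lower in Fur and 0 in NWS, and of the 3 squamous markers 0 in either. The smooth muscle markers were ACTG2, ASB2, POPDC2, ACTC1 and DES, and the secretory ones included MUC5AC and SCGB2A1. The study lists all of these among its largest differences between Suffolk and Fur or NWS at the synchronised follicular phase. These marker lists were thus not independent of the difference between those breeds. No marker of any list was called in Belclare, where edgeR called 0 genes and DESeq2 18. The part of these cell types in the breed difference of SLC16A6 was not tested. Within groups, over all ewes, the r of SLC16A6 with the summed markers was 0.30 for epithelium, -0.12 for smooth muscle, 0.17 for leukocytes and 0.12 for fibroblasts. For the secretory and the squamous markers it was 0.04 and -0.12.

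The summed epithelial markers of Belclare had medians of 2804 CPM in the synchronised and 2632 CPM in the natural follicular phase, against 2626 and 2381 CPM in Suffolk. In the luteal phase, markers called lower in Fur than in Suffolk were 5 of 10 epithelial, 1 of 3 secretory, 2 of 3 squamous, 7 of 9 leukocyte and 3 of 6 fibroblast ones, and 5 of 5 smooth muscle markers were called higher, beside 13.8% of all genes. In NWS, with 4.35% of all genes called, 1 epithelial, 1 secretory and 1 leukocyte marker were lower and 4 of 5 smooth muscle markers higher. In Belclare, with 2.43% of all genes called, 2 of 6 fibroblast markers were lower and no marker of the other lists was called.

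In the RefSeq annotation of another sheep assembly, ARS-UI_Ramb_v3.0, SLC16A6 lies within the span of ARSG, which encodes a sulphatase, next to WIPI1, AMZ2 and GNA13. The library kit keeps the strand of the RNA, but the sources used here do not say whether counting used it, so reads of SLC16A6 and of an overlapping gene may not have been told apart. WIPI1, an autophagy protein, had r = 0.25 with SLC16A6 over all ewes. It was higher in the natural follicular than in the luteal phase of Suffolk, with a log2 FC of 1.13 (SE 0.16, adjusted p = 0.000374 by edgeR). Its means also differed in this direction in Belclare (42.8 against 16.7 CPM), Fur (34.4 against 19.4) and NWS (36.2 against 17.8). SLC16A6 was not called between these states in those breeds.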

How the data were processed

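Cervical RNA was measured by paired-end sequencing of poly(A)-selected, stranded libraries. The authors trimmed reads with BBDuk, aligned them to Oar_v3.1 with STAR 2.6.1b, kept unique pairs with few mismatches and used featureCounts for Ensembl genes (Subread 1.6.3). They deposited raw counts per gene, which miss pairs that map to several places or differ from the reference. Libraries were grouped by labelled breed, cycle and phase, and 1 library with contradictory labels was left out of all comparisons. Tissue was taken post mortem, so replicate numbers cannot mark repeated sampling of the same ewe. Same-numbered ewes had a correlation of 0.1 or less in at least 1 pair of each of 30 contrasts. That count rests on the lowest pair of each contrast, and the highest pair of any reached 0.587. Whether the numbers mark an order or batch of collection was not tested. No 2 libraries of a group were alike within sampling noise (lowest chi-square per degree of freedom 16.4 over 490 pairs).

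A gene was tested if 10 or more of the 39 ewes of the synchronised follicular groups had at least 1 CPM (14811 of 27054). SLC16A6 reached 1 CPM in 27 of these ewes, 11 of them Suffolk. Each contrast was fitted on its own ewes with edgeR 4.0.16 (R 4.3.3; TMM, quasi-likelihood F test, Benjamini-Hochberg over all genes). DESeq2 1.42.0 was an alternative. The scripts were tested on simulated data. Log2 CPM used a prior count of 2. Gene names came from the study's supplementary tables (1352 identifiers). The gene and the lists were chosen with earlier results of these data known. Named are the 5 named genes of highest and the 3 of lowest correlation with SLC16A6 over ewes, the 3 highest over group means, 2 unnamed identifiers and called list members. WIPI1 was added for its position. The natural follicular against luteal comparisons were added after values had been seen. P-values set a difference between groups against the spread between the ewes sampled. No sequence of this build was used here.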

Additional observations from a re-analysis of the deposited data

Results flagged for a closer look

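Among the 11 groups of 8 to 10 ewes, the highest luteal Suffolk ewe, at 3.43 CPM of SLC16A6, stood apart from the others of its group, with a gap of 0.553 of the group's range to the next ewe. Chance flags about 1 group in 20 by such a gap if levels are normally distributed, which was not tested for these CPM values. Without this luteal ewe the mean of its group was 1.02 CPM instead of 1.26 CPM. The synchronised follicular Suffolk group, with 11 ewes, was outside this check. Its highest ewe had 10.1 CPM and the next 5.16 CPM. Without the highest, the mean of that group was 2.78 CPM instead of 3.44 CPM.

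The library whose labels contradict each other, titled as a natural follicular Suffolk ewe but labelled as synchronised and luteal, had 18 read pairs on SLC16A6 (1.04 CPM), above the 3 that a count of 0 allows. It lies within the range of both Suffolk groups its labels name.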

How the results depend on the processing

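Of 24 tested comparisons of SLC16A6, each kept its call or lack of one with DESeq2's size factors, with all 12 groups in one fit, with another filter or none, and with DESeq2's Wald test. The replicate block, a factor for replicate numbers that do not pair ewes, ended all 3 calls: Fur over Suffolk in the natural follicular phase had a log2 fold change of -1.73 (adjusted p = 0.0506, over 6 alternatives 0.000199 to 0.0506), NWS over Suffolk -1.85 (0.232; 0.000329 to 0.232) and natural follicular over luteal Suffolk 1.27 (0.355; 0.00256 to 0.355). Under the block NWS over Belclare in the luteal phase turned to -0.0075 and NWS over Fur in the natural follicular phase to 0.011, and the latter was 0.031 in the exact permutation test. Described differences moved by less than the spread between ewes, but synchronised over natural follicular Suffolk turned from -0.19 to 0.38 under the block, by more than its SE of 0.49. Of the 5 most alike named genes, 4 remained with a prior count of 0.5 and 4 with Spearman's rho.

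With 1 ewe left out, the log2 fold change ran from -2.41 to -1.81 for Fur over Suffolk, -2.44 to -1.83 for NWS over Suffolk and -1.64 to -0.80 for Belclare over Suffolk in the natural follicular phase, -0.15 to 0.40 for Belclare over Suffolk in the luteal phase, and 1.21 to 1.95 for natural follicular over luteal Suffolk. The number of genes called for NWS over Suffolk in the natural follicular phase was 147, but 830 with DESeq2, 1328 with all groups in one fit and 0 with the block. Fur over Suffolk gave 1425 and 942 with the block, and natural follicular over luteal Suffolk 1888 and 1066. Called genes also moved by over 1.5 times as follows. With DESeq2 they were 938 in place of 360 for Belclare over Suffolk in the luteal phase, 18 in place of 0 in the natural follicular phase, 95 in place of 2 for synchronised over natural follicular NWS, and, for the natural follicular minus luteal difference from Suffolk, 388 in place of 182 in Fur (56 with the block), 14 in place of 2 in NWS and 64 in place of 0 in Belclare. For NWS over Fur DESeq2 gave 41, 33 and 49 in place of 5, 1 and 6 in the natural follicular, synchronised follicular and luteal ewes. With all groups in one fit, Belclare over Suffolk gave 40 in place of 0 and 990 in place of 360 in natural follicular and luteal ewes, 12 in place of 1 in synchronised follicular ewes and 125 in place of 0 for its natural follicular minus luteal difference; NWS over Fur gave 99, 9 and 20, and synchronised over natural follicular ewes 378 in place of 729 in Fur, 79 in place of 2 in NWS, 4 in place of 0 in Suffolk and 1 in place of 0 in Belclare. Without a filter NWS over Fur gave 15 and 4 in natural and synchronised follicular ewes. The block gave 18 for Belclare and 211 in place of 645 for NWS over luteal Suffolk, 1001 in place of 1724 for NWS over luteal Belclare, and 189 in place of 1350 for natural follicular over luteal NWS. Depth was 4 to 182 read pairs of SLC16A6 per ewe, and standard errors of its tested log2 fold changes ran from 0.27 to 0.73.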
